A study of Homo sapiens with 8 samples.

Results

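The 10 genes described here encode precursors of neuropeptides: SST, NPY, VIP, CCK, CRH, TAC3, CARTPT, GAL, NTS and ADCYAP1. They were taken by symbol from a single-cell matrix of 60286 genes, and all 10 were present as rows. The matrix holds 43693 cells of neural cultures grown from H1, a human embryonic stem cell line, and the study asked what cells its flat (2-D) and organoid-like (3-D) cultures contained and how they responded to dopamine, cocaine and morphine. All cells were barcoded by split-pool ligation in 1 pool, which was sequenced as 8 sublibraries. A prefix in each cell's name, called a tag here, gives its culture, and 46 tags were found.

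The labels do not spell out the words in the tags, so the tags are used as written. The arrangements 2DCocu, 3DFusi, 2DMono and 3DMono carry treatments. 2DCocu has 12 tags, 4 each of Vehic, AcCoc and AcMor. 3DFusi has 10 tags, of which 4 are AcCoc, 3 are AcMor and 3 are Vehic. 2DMono and 3DMono have 6 tags each, 2 each of Vehic, AcDop and AcMor. The labels list dopamine, cocaine, morphine and untreated as the treatments, with no dose or time. Another 5 arrangements are named as protocols and carry no treatment: 2DProto2Fjo, 2DProto3Wu and 2DProto4Nic with 2 tags each, and 3DProto1For and 3DProto2Xia with 3 tags each. All tags share 1 genetic background, several organoids were broken up together when 3-D cultures were dissociated with papain, and nothing says that tags of a group were separate cultures. The p-values below therefore measure only the spread between tags, which may be technical.

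Neuropeptides are cut from larger precursors inside dense core vesicles, released from neurons, and act through G protein-coupled receptors on cells at some distance. In the forebrain, SST, NPY, VIP and CCK are classical markers of inhibitory interneuron types. NTS, which encodes neurotensin, interacts closely with dopamine signalling. CARTPT takes its name, cocaine- and amphetamine-regulated transcript, from its response to those drugs in rat striatum. ADCYAP1 encodes PACAP, a relative of VIP that activates adenylyl cyclase. VIP and PACAP are also transmitters of enteric and other autonomic neurons.

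Several of these promoters are known targets of cAMP signalling through CREB, which binds the cAMP response element TGACGTCA and, more weakly, its shorter core TGACG. SST and VIP were highest in the same cluster of cells, where NTS was nearly absent, but came mostly from different tags within it. The promoters of these 3 genes, whose counts were concentrated in few clusters of cells, are shown for reading beside the values below. Each is 300 bases from RefSeq on GRCh38.p14, from 250 bases before the transcription start to 50 after it, 5′ to 3′ on the gene's strand, with TGACG on either strand in capitals, so that a full element appears as TGACGTCA.
SST, chr3:187670345-187670644, minus strand: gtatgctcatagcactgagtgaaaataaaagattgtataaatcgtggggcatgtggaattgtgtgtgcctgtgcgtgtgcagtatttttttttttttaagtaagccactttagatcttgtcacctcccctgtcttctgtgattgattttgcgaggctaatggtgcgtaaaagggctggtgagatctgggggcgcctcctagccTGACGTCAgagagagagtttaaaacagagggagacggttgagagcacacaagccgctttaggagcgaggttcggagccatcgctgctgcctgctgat
VIP, chr6:152750547-152750846, plus strand: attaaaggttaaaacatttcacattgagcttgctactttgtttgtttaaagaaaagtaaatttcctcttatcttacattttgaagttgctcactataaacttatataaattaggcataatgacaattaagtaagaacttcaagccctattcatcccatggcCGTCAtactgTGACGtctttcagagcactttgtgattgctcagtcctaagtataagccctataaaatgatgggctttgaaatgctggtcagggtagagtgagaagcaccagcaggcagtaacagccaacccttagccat
NTS, chr12:85874045-85874344, plus strand: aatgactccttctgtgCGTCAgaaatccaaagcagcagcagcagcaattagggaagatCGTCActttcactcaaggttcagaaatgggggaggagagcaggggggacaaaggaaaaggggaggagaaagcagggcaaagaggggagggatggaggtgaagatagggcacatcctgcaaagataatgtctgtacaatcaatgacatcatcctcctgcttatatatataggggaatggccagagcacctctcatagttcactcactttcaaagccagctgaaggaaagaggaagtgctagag
SST had 1 full element, beginning 47 bases before the start. VIP had 2 short elements with no full one, at 89 and 79 bases before the start. NTS had 2 short elements, at 234 and 192 bases before the start. CARTPT, at chr5:71719025-71719324, had a full element 143 bases before its start. The promoter table held 10 windows for 8 members (ADCYAP1 and CCK with 2 each, and none for CRH or GAL), and of these 8 members SST and CARTPT had a full element. Of 35116 promoters of the same length, 1.85% held a full element and 24.6% held the short one, a count that includes the full ones. A match is a description of these letters and says nothing of whether a factor binds there.

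All 10 genes were rare. Levels are given as CPM, a count scaled to the total counts of a tag, class or cluster, and a cell is said to have a count where its entry is at least 0.5, because the deposited counts are estimates that need not be whole. Of 43693 cells, 2866 (6.56%) had a count of at least 1 member, and 2691 of these had only 1. The neurotensin gene NTS gave the most counts, 2285 in 823 cells (1.88%), and ADCYAP1 followed with 905 counts in 651 cells (1.49%). VIP gave 789 counts in only 198 cells (0.453%). NPY had 496 counts in 405 cells, TAC3, the neurokinin B precursor, had 437 in 394 cells, and CRH, the peptide that starts the stress axis, had 346 in 250 cells. SST had 224 counts in 145 cells and GAL, which encodes galanin, had 131 in 94. CCK and CARTPT were close to the limit of detection, with 56 and 52 counts in 50 and 44 cells.

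The counts behind these sums were spread unevenly. For NPY, TAC3 and ADCYAP1, 45 of 46 tags had a count, while CARTPT was seen in 15 tags. One tag, 3DProto1For2, held 77.4% of all VIP counts, and 2DProto2Fjo2 held 47.7% of NTS counts. The 10 highest VIP cells held 39.5% of its counts, and the highest single cell had 64.88. Tag totals ranged from 3624668 to 58777178 counts and tags held 317 to 1959 cells, so that 1 count was worth more in a small tag. Across the 8 sublibraries, which drew cells from the same pool, the coefficient of variation was 11.1% for NPY and 12.7% for TAC3, where counting error alone gives 12.7% and 13.5%. It was larger than counting error for the other 8 genes, by the largest ratio for VIP (39.3% against 10.1%) and NTS (22.7% against 5.92%). Others were CARTPT (70.5% against 39.2%), SST (30.6% against 18.9%) and ADCYAP1 (14.4% against 9.4%). Of 41192 barcode combinations, 2393 occurred in more than 1 sublibrary. Summed pluripotency markers were at 0.391 to 8.36 CPM in the tags, and summed neuron markers at 1050 to 2640 CPM, so the tags hold neural cells although the labels give the cell type of the starting line.

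**Figure D1:**
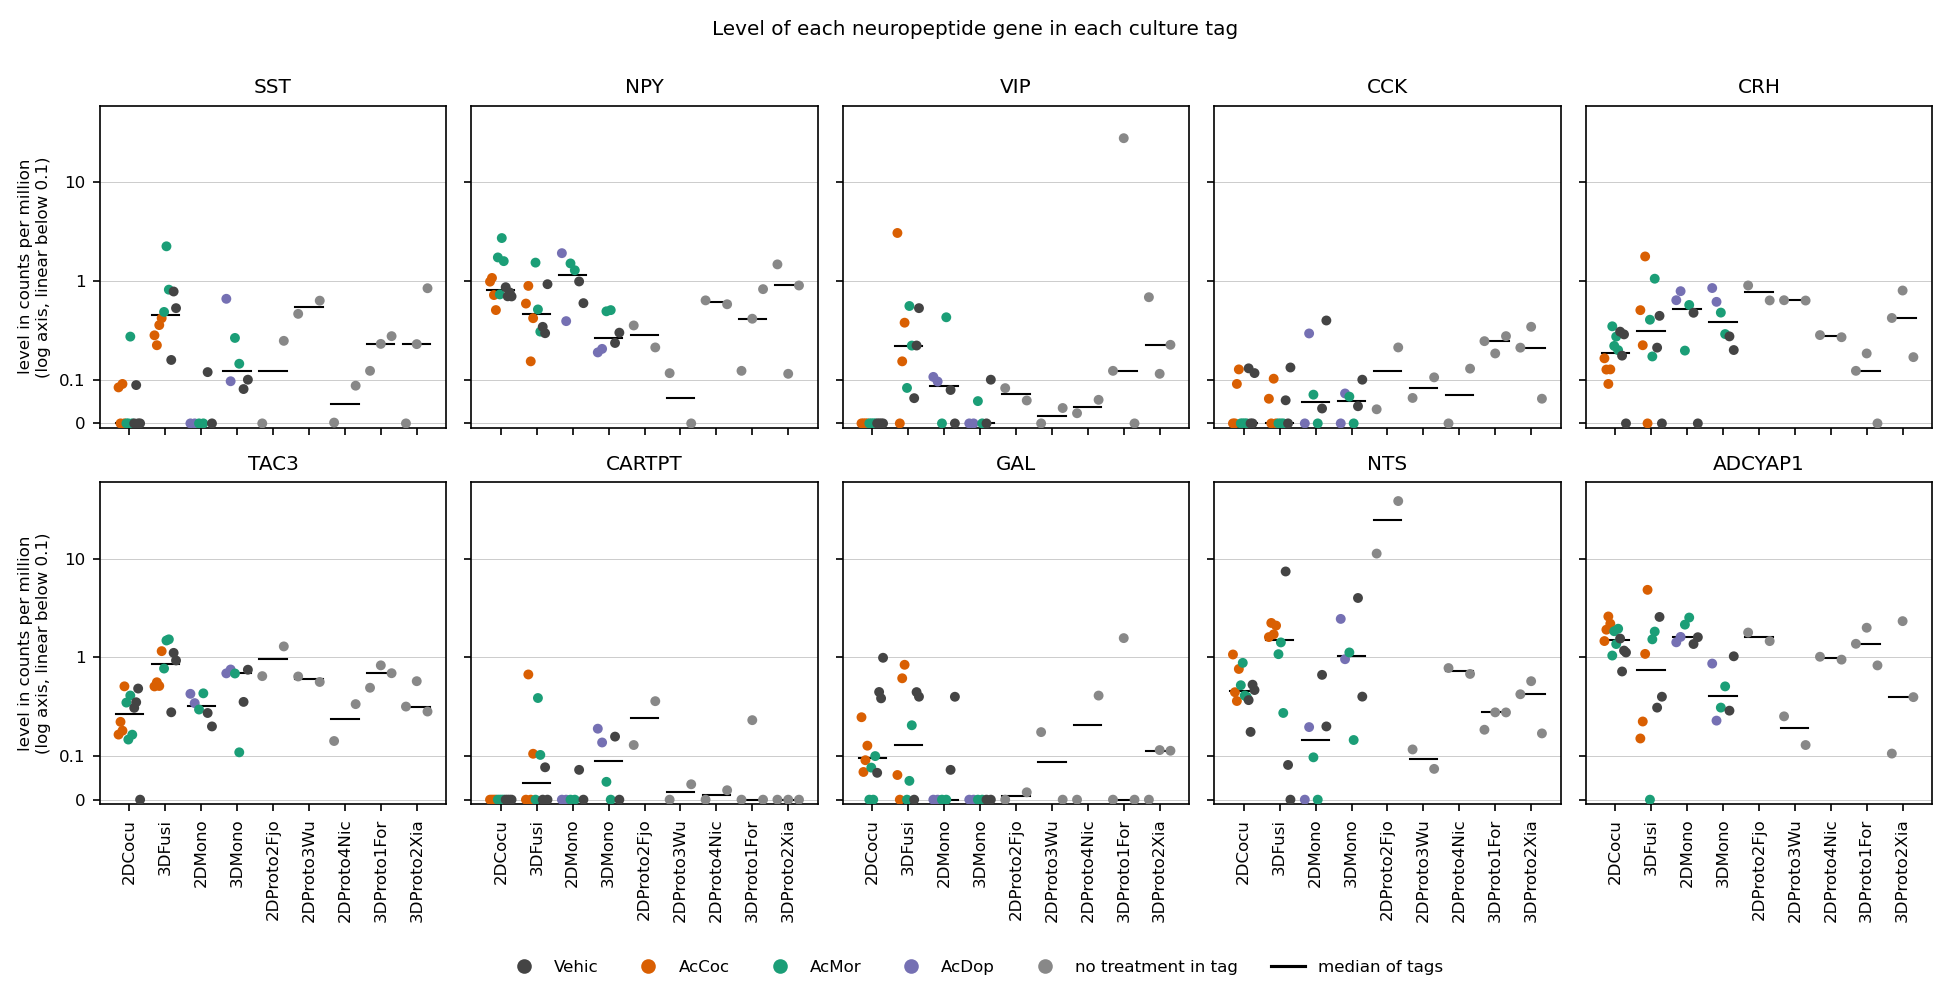
Level of each neuropeptide gene in each of 46 culture tags, in CPM on an axis that is logarithmic above 0.1 and linear below it; each point is 1 tag, coloured by the treatment word in its name, and the line is the median of an arrangement. VIP stood at 28.2 CPM in 1 tag of 3DProto1For and NTS at 11.3 and 38.5 CPM in the 2 tags of 2DProto2Fjo, above every other tag.

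The cells fell into 40 clusters, made without the 10 genes so that their levels describe the clusters rather than define them. Marker lists named 22 clusters, and 18 clusters with 17189 cells (39.3%) stayed unnamed. Classes of neurons held 17888 cells (40.9%). The share of each gene's positive cells that lay in these classes was 69.3% for NTS, 68.2% for CARTPT, 58.4% for ADCYAP1, 42.1% for SST, 33.1% for NPY, 30.5% for TAC3, 28% for CCK, 22.2% for VIP, 20.8% for CRH and 12.8% for GAL. For 7 of the 10 genes, most cells with a count were thus outside the classes named as neurons, as were most of all cells. SST, at 42.1%, was near the 40.9% of all cells. The unnamed cluster 27, described below, lies outside these classes and held 33 of the 145 SST cells and 60 of the 198 VIP cells. The share of cells in neuron classes differed between treatments in 2DCocu without overlap, at 8.63% to 20.4% in the 4 Vehic tags, 38.7% to 51% in the 4 AcCoc tags and 40.9% to 45% in the 4 AcMor tags. In 3DFusi the ranges overlapped, at 31.6% to 44.4% for Vehic, 19.2% to 53.9% for AcCoc and 32.9% to 37.4% for AcMor. The classes were rebuilt here from markers and are not the study's own annotation. Clusters are compared below by level with no test, because cells are not replicates and each cluster draws on different tags.

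NTS was highest in excitatory neuron classes, though in only some of their clusters, as given below. In the 9265 cells of the 2 excitatory classes (cortical excitatory neuron-like and other glutamatergic neuron-like) its level was 12.02 CPM (95% exact Poisson interval 11.5 to 12.6, counting error only), against 0.382 CPM (0.276 to 0.507) in the 8623 cells of the inhibitory classes. Without 2DProto2Fjo2 the excitatory level was 5.81 CPM. Of 8375 cortical excitatory neuron-like cells, 473 (5.65%) had an NTS count at a median depth of 11818 counts per cell. In mesenchymal-like cells, given here as a non-neuronal class for comparison, the share was 1.02% at a median depth of 15288. That class is not a measure of background. In its largest cluster, cluster 8, 23.1% of cells were called doublets, and 37.6% of the class's NTS counts were from 3DFusiVehic1. When cells were thinned to 5000 counts, the excitatory share was 2.62% and the mesenchymal one 0.217%. Sorting cells by their own counts of GAD or SLC17A genes in place of clusters gave the same order, 9.43 CPM against 0.702 CPM.

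Most NTS counts came from a small number of clusters. Clusters 15, 20 and 5 held 77.6% of them. Cluster 15, cortical excitatory neuron-like with CALB2 and TRPC6 among its leading genes, had 1119 NTS counts in 366 of 1187 cells, a level of 35.8 CPM. Cluster 20, whose leading genes RELN, LHX1 and TP73 are known from Cajal-Retzius cells, had 16.9 CPM, and cluster 5 had 10.8 CPM. Left without the tag that moved it most, cluster 15 was at 15.4 CPM and cluster 20 at 7.31 CPM (both without 2DProto2Fjo2), and cluster 5 at 6.79 CPM (without 3DFusiVehic1). Of the 1506 NTS counts of the cortical excitatory neuron-like class, 1119 were in cluster 15 and 361 in cluster 5. Few were thus left for its clusters 0, 9 and 22, of 3042, 1578 and 774 cells. Cluster 9 was at 0.724 CPM, and at 0.179 CPM without 3DFusiVehic1. A high NTS level was therefore not a trait of the whole class. Within cluster 15 the level differed by culture. The cluster held 838 cells of 2DProto2Fjo and 231 of 2DProto4Nic. In 2DProto2Fjo tag 1, 124 of its 386 cells (32.1%, 95% exact binomial interval 27.5 to 37) had an NTS count, and in tag 2, 229 of 452 (50.7%, 46 to 55.4). Among the 231 cells from 2DProto4Nic, 2 had an NTS count and the level was 1.10 CPM. Of the same 231 cells, 25 had an ADCYAP1 count, at 7.19 CPM. In 3DFusiAcCoc2, 7 of its 53 cells in the cluster had an NTS count, at 16.1 CPM against 0.502 CPM in its other cells.

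ADCYAP1 had a wider distribution. Among the neuron classes it was highest in other glutamatergic neuron-like cells, at 4.39 CPM (3.48 to 5.52), and in the glycinergic or PAX2 inhibitory neuron-like class, at 4.40 CPM (3.78 to 5.10), where 128 of 2762 cells (4.63%) had a count. In GABAergic neuron-like cells it was 0.156 CPM (0.0758 to 0.272), and in progenitor-like cells no count was found in 2020 cells, a floor of 3 counts being worth 0.103 CPM. Cluster 17, which expressed PAX2 and SLC6A5, the glycine transporter gene, stood at 6.73 CPM. Clusters 7 and 17, which make up the PAX2 class, each also met 4 markers of the other glutamatergic list. By the cells' own GAD and SLC17A counts, ADCYAP1 was at 2.91 CPM in excitatory and 0.552 CPM in inhibitory cells. By class these levels were 2.19 and 1.61 CPM. The mesenchymal-like share of cells with an ADCYAP1 count was 0.679%. Thinned to 5000 counts, the shares were 2.06% in the PAX2 class and 0.174% in mesenchymal-like cells.

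SST, the marker of a classical forebrain interneuron type, was higher in inhibitory than in excitatory classes, at 0.652 CPM (0.512 to 0.811) against 0.0805 CPM (0.0415 to 0.140). After the unnamed cluster 27, the highest SST level was in cluster 7, of the glycinergic or PAX2 class and with GLRA3 and HOXB7 among its leading genes, with 31 counts in 16 of 1705 cells (1.10 CPM, 0.739 to 1.54) and 13.8% of all SST counts. That class was at 0.822 CPM (0.559 to 1.14) and the GABAergic neuron-like class at 0.580 CPM (0.418 to 0.784), intervals that overlap. The medial ganglionic eminence (MGE) is the embryonic source of SST interneurons. MGE markers were spread over clusters 6 and 23, so these are given by number. Cluster 6, with LHX8 and LHX6 among its leading genes, had 22 SST counts in 1755 cells (0.631 CPM, 0.396 to 0.956), 72.7% of them from 2DProto3Wu_2, and was at 0.397 CPM without that tag. Cluster 23, with LHX6 beside the general inhibitory genes DLX5 and GAD2 among its leading genes, had 2 in 746 cells (0.356 CPM, 0.0432 to 1.29) at a lower median depth of 6638 counts per cell, intervals that overlap. VIP was at 0.799 CPM in inhibitory classes and at 0.0166 CPM, from 2 counts, in excitatory ones. The inhibitory level rested on few tags: it was 0.481 CPM without 3DProto1For2, and 0.207 CPM (23 of 95 counts) when 3DFusiAcCoc1 was left out too. By the cells' own GAD and SLC17A counts, VIP was at 0.899 CPM in inhibitory and 0.35 CPM in excitatory cells. Of the 42 excitatory counts in that sorting, 92.2% were from 3DProto1For2. In 3DProto1For2, non-neuronal cells had VIP at a share like that of cluster 7, as given below. CARTPT had the opposite split, 0.202 CPM (30 counts) in excitatory against 0.0168 CPM (2 counts) in inhibitory classes. Its highest cluster level, however, was in the unnamed cluster 27, outside both. NPY, commonly used as an interneuron marker, was at 0.777 CPM in excitatory classes and 0.320 CPM in inhibitory ones, and by the cells' own GAD and SLC17A counts the levels were 0.649 and 0.637 CPM. Its highest clusters were 18, which mixed DLX and cycling genes, at 3.32 CPM, and the cycling-like cluster 10, led by NEUROD4 and others, at 2.98 CPM.

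CRH was highest in progenitor-like cells. Cluster 4, with the outer radial glia genes HOPX and MOXD1 among its leading genes, had 76 CRH counts in 56 of 2020 cells (2.77%, 2.10 to 3.59), a level of 2.64 CPM and 22% of all CRH counts. Its share in mesenchymal-like cells was 0.340%. In the excitatory classes CRH was at 0.254 CPM and in the inhibitory ones at 0.295 CPM. TAC3 stood highest in the 41 cells of cluster 39, at 5.16 CPM from 6 counts (1.81 to 10.7), followed by 4.41 CPM in cluster 27 and 3.07 CPM in cluster 13. None of these clusters was named, and the leading genes of cluster 39 mixed the endothelial genes PECAM1 and FLT1 with the gut and liver genes APOB, MUC13 and AFP. Its share of cells with a count was 0.776% in cortical excitatory neuron-like and 0.722% in mesenchymal-like cells, or 0.236% and 0.130% when cells were thinned to 5000 counts. From all counts, the levels in these classes were 0.596 CPM (0.473 to 0.745) and 0.346 CPM (0.214 to 0.554). CCK had no cluster with more than 9 counts, and that one, cluster 11, was led by TTR, the choroid plexus transthyretin gene.

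**Figure D2:**
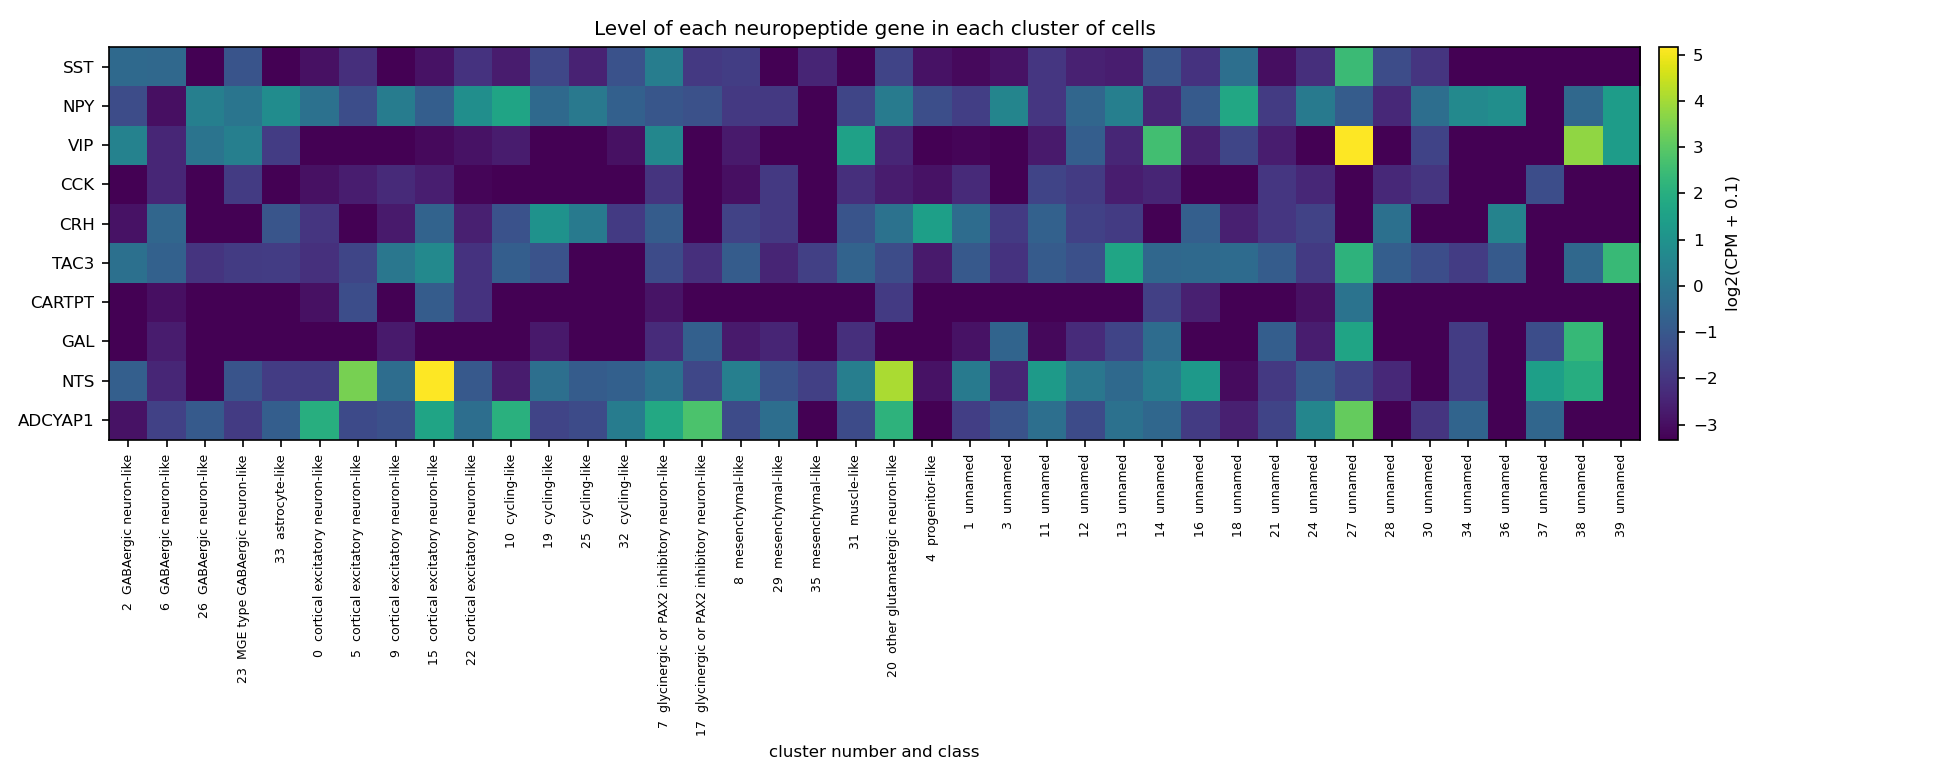
Level of each neuropeptide gene in each of 40 clusters of cells, as log2(CPM + 0.1); columns are clusters with their number and class, sorted by class, and lighter colours are higher. NTS is brightest in clusters 15, 20 and 5, and SST, VIP, ADCYAP1 and CARTPT are brightest in the unnamed cluster 27.

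One unnamed cluster gathered several members. Cluster 27 had 683 cells, 614 of them from 3DFusi and 69 from 3DProto1For tag 2, with none from a 2-D tag. HAND2-AS1, FAM163A, HAND2, NOS1 and SLC18A1 were among its leading genes. HAND2 was at 127 CPM, NOS1, the neuronal nitric oxide synthase gene, at 413 CPM, and CHAT, the acetylcholine-synthesising enzyme, at 42.0 CPM. STMN2, a general neuron gene, had a count in 91.4% of its cells. Of the marker lists, those for neurons (3 of 8 genes), neural crest or peripheral neurons (3 of 8), dopaminergic neurons (3 of 8), hypothalamic neurons (3 of 7) and medium spiny neurons (3 of 9) each had 3 genes over 2-fold higher there. Summed, the neural crest or peripheral list was at 124 CPM against 10 CPM in all other cells, the dopaminergic one at 87.8 against 88.0 CPM and the hypothalamic one at 35.2 against 31.0 CPM. No list met the rule used, and the cluster was left without a name.

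In cluster 27, VIP was at 35.6 CPM with 59.6% of all VIP counts in 60 of its cells, and at 7.80 CPM without 3DProto1For2. Of the counts outside that tag, 75 were from 2 cells of 3DFusiAcCoc1. VIP was at 8.31 CPM in 3DFusiVehic4 (4 counts, 32 cells there) and at 0 to 2.59 CPM in the 5 3DFusi tags with over 60 cells there. ADCYAP1 was at 8.93 CPM (118 counts), SST at 5.43 CPM (72 counts, 32.1% of all; 3.39 CPM without 3DFusiAcMor3), TAC3 at 4.41 CPM and GAL at 3.03 CPM (40 counts, 30.8% of all). CARTPT was at 0.834 CPM (11 counts, 21.2% of all), its highest cluster level, and at 0.584 CPM without 3DProto1For2, where 1 cell gave 4 of the counts. NTS had 3 counts there (0.228 CPM), and CCK and CRH had none. The members were high in different tags. VIP was mostly from 3DProto1For2, where 44 of 69 cells of the cluster (63.8%, 51.3 to 75) had a count and the level was 315 CPM. In the other cells of that tag, 82 of 1025 (8%, 6.41 to 9.83) had VIP, at 11.4 CPM, with median depths of 14356 and 14143 counts per cell in and outside the cluster. Those 82 cells were of several kinds: VIP was in 40 of 445 cells of cluster 14 (8.99%, 139 counts), which was unnamed but had all 8 mesenchymal markers, in 15 of 162 cells of cluster 7 (9.26%, 39 counts) and in 9 of 107 muscle-like cells (8.41%, 23 counts). Over all tags, 0.0849% of mesenchymal-like cells had VIP, and every VIP count of the muscle-like class came from 3DProto1For2. Whether the counts outside cluster 27 in that tag came from free RNA was not tested. SST, in contrast, had no count in those 69 cells. It was found in the 3DFusi cells of the cluster, at 10.3 CPM in AcMor3, 4.60 CPM in AcMor4 and 6.66 CPM in Vehic3, against 0.640, 0.198 and 0.163 CPM in the other cells of the same tags. In AcCoc4, with 84 cells in the cluster, SST had no count there. ADCYAP1 was high in the cluster in all 4 of these 3DFusi tags, at 6.49, 9.23, 18.1 and 13.4 CPM against 0.532, 0.610, 0.929 and 3.50 CPM in their other cells.

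**Figure D3:**
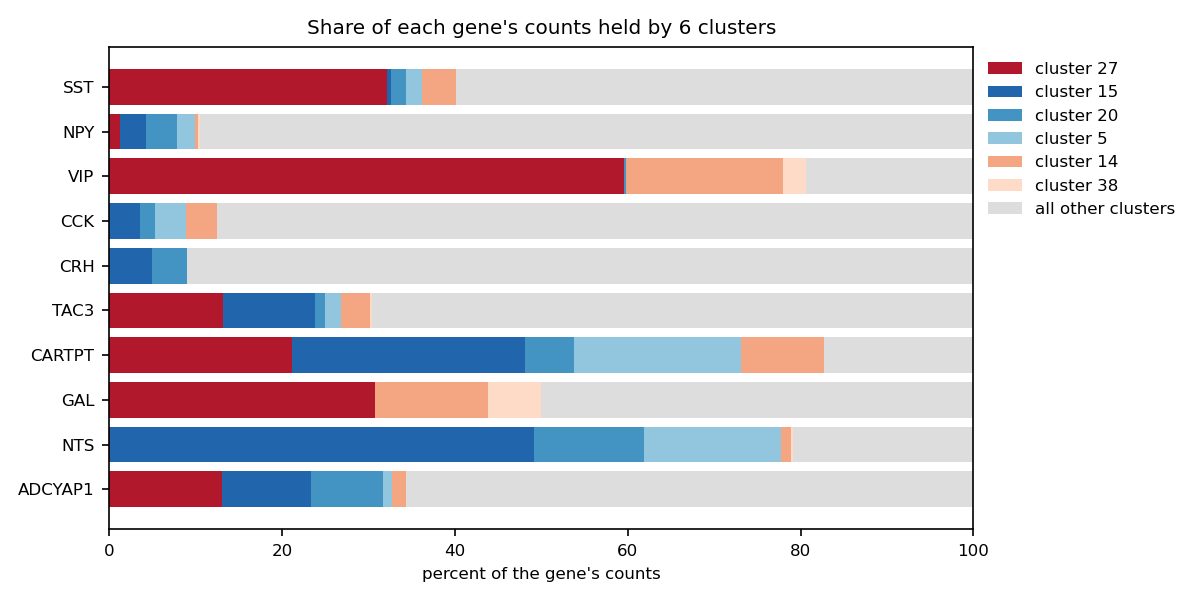
Share of each neuropeptide gene's counts, in percent, held by 6 clusters of cells and by all others together; each bar is 1 gene and adds to 100. Cluster 27 held 59.6% of VIP, 32.1% of SST and 30.8% of GAL counts, and clusters 15, 20 and 5 held 77.6% of NTS counts.

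A few pairs of members met in the same cells. Of 94 cells with GAL, 19 (20.2%, 12.6 to 29.8) also had VIP, against 0.453% of all cells, and 16 of the 19 were in 3DProto1For2. Within that tag, 16 of 24 GAL cells had VIP (66.7%, 44.7 to 84.4), against 11.5% of all its cells. Of these 24 GAL cells, 9 lay in cluster 27, where 63.8% of the tag's cells had VIP. Over all tags, 10 of the 19 cells with both were in cluster 27 and 7 in cluster 14, which had all 8 mesenchymal markers. Of 44 cells with CARTPT, 13 (29.5%, 16.8 to 45.2) also had NTS, against 1.88% of all cells, and 8 of these were in cluster 15. Within that cluster, where 30.8% of all cells had NTS, it was 8 of 13 CARTPT cells (61.5%, 31.6 to 86.1), an interval whose lower end is close to the cluster's own share. SST was seen with ADCYAP1 in 10 cells and with TAC3 in 7, 6 of each in cluster 27, where 18.2% (6.98 to 35.5) of the 33 SST cells had each, against 9.52% and 7.17% of all its cells, shares that the interval includes. NTS and ADCYAP1 met in 22 cells, but 20 of those were called as doublets, that is, as likely mixtures of cells under 1 barcode. Of the 19 cells with VIP and GAL, 11 were so called, and without called doublets the share of GAL cells with VIP was 12.3%. Of the 13 with CARTPT and NTS, 4 were, and of the 10 with SST and ADCYAP1, 3.

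The question of culture format was asked by setting 3-D against 2-D tags of like arrangement. In the sums over a tag, fewer cells of a type and less RNA per cell cannot be told apart. A gene is said to have risen or fallen where the adjusted p of edgeR's quasi-likelihood test, with Benjamini-Hochberg adjustment over all genes tested, was under 0.05. CCK, CARTPT and GAL had too few counts to be tested in any comparison.

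Between 3DMono and 2DMono, ADCYAP1 and NPY were lower and NTS higher in 3-D. ADCYAP1 ranged from 1.36 to 2.53 CPM (median 1.61) over the 6 2DMono tags and from 0.228 to 1.02 CPM (median 0.408) over the 6 3DMono tags. NPY ranged from 0.392 to 1.92 CPM (median 1.14) in 2DMono and from 0.189 to 0.507 CPM (median 0.267) in 3DMono. The groups did not overlap for ADCYAP1, and for NPY 1 2DMono tag lay within the 3DMono range. NTS ran from 0 to 0.664 CPM (median 0.146) in 2DMono and from 0.145 to 4.00 CPM (median 1.04) in 3DMono, with overlap. By edgeR, ADCYAP1 fell by 2.11 on the log2 scale (SE 0.363, adjusted p = 0.000399), NPY fell by 1.92 (SE 0.363, adjusted p = 0.000809) and NTS rose by 2.40 (SE 0.681, adjusted p = 0.0134). These were the 3 members with enough counts to be tested, in a comparison in which 38% of all tested genes were called, so that a call by itself sets no gene apart. The NTS call depended on 1 tag, since without 3DMonoVehic1 the rise was 1.84 and not called. It was also lost, at 1.67 (adjusted p = 0.217 by edgeR), when tags of the same number were summed within each arrangement. In that tag, cluster 5 gave 76 of the NTS counts (74.5%) from 17 of its 309 cells. With Vehic tags only, NPY alone kept its call (−2.05, adjusted p = 0.0442 by edgeR), and ADCYAP1 was at −1.65 (adjusted p = 0.111). In neuron classes only, ADCYAP1 fell by 1.91 (adjusted p = 0.0153 by edgeR), and the other members were not tested there. The neuron clusters themselves differed between the arrangements. Cluster 0, with the most ADCYAP1 counts of any cluster (132), had 1178 cells of 2DMono and 2 of 3DMono, and cluster 5 had 1 and 1088. Of the clusters high in NPY, cluster 10 (2.98 CPM) had 431 and 6 cells and cluster 18 (3.32 CPM) had 113 and 222. Their part in the differences was not tested.

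Between 3DFusi and 2DCocu, NPY was again lower in 3-D, and TAC3 and NTS were higher. NPY ranged from 0.508 to 2.73 CPM (median 0.817) in 12 2DCocu tags and from 0.153 to 1.54 CPM (median 0.468) in 10 3DFusi tags. TAC3 ranged from 0 to 0.508 CPM (median 0.264) in 2DCocu and from 0.277 to 1.52 CPM (median 0.849) in 3DFusi. Both pairs of ranges overlapped. The fits gave NPY a fall by 1.01 on the log2 scale (SE 0.310, adjusted p = 0.00933 by edgeR), TAC3 a rise of 1.57 (SE 0.332, adjusted p = 0.000459) and NTS a rise of 1.66 (SE 0.545, adjusted p = 0.0149). These fits take the tags as independent, although deviations of same-numbered 3DFusi tags went together. With tags of the same number summed, so that 4 sums stood against 4, NPY was at −1.18 (adjusted p = 0.0163 by edgeR), TAC3 at 1.66 (adjusted p = 0.00967) and NTS at 1.92 (adjusted p = 0.0299), all still called. With Vehic tags only, 4 against 3, none of these 3 genes had enough counts to be tested, and ADCYAP1, the 1 member that did, was at −0.22 (adjusted p = 0.825 by edgeR). Of all genes tested, 48.8% were called here. NTS again turned on 1 tag, 3DFusiVehic1 at 7.43 CPM, without which it was 0.64 and not called. In that tag, 23 of the 139 cells of cluster 5 gave 53.5% of NTS counts. Without called doublets, NPY was at −0.90 (adjusted p = 0.0667 by edgeR), TAC3 had too few counts to be tested, and NTS was called at 1.93 (adjusted p = 0.0105).

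ADCYAP1 did not pass in that comparison when all cells were summed (−0.47, SE 0.456, adjusted p = 0.407 by edgeR). The 10 3DFusi tags ran from 0 to 4.84 CPM (median 0.741) around the 2DCocu range of 0.718 to 2.60 CPM (median 1.51). Without the cells of cluster 27, which made up 0% to 15.5% of 3DFusi tags and were absent from 2DCocu, ADCYAP1 fell by 1.48 (SE 0.401, adjusted p = 0.00397 by edgeR). Cluster 27 was the cluster of highest ADCYAP1 and lies, in this comparison, on the 3DFusi side alone, so leaving it out can only lower 3DFusi, and that value is a description of where the counts lie. The same holds for the fit in neuron classes only, a fall by 1.89 (adjusted p = 0.00174 by edgeR), since cluster 27 is unnamed and lies outside those classes. Clusters 17 and 0, in contrast, lay almost wholly on the 2DCocu side of this comparison and were kept in both fits. Cluster 17, at 6.73 CPM of ADCYAP1, had 1047 cells of 2DCocu and 2 of 3DFusi. Cluster 0, with the most ADCYAP1 counts of any cluster (132), had 1856 and 1. Pooled over 3DFusi, ADCYAP1 was at 1.10 CPM with cluster 27 and at 0.551 CPM without it, against 1.63 CPM in 2DCocu. The same step took pooled SST in 3DFusi from 0.647 to 0.295 CPM, TAC3 from 0.842 to 0.583 CPM and GAL from 0.197 to 0.0552 CPM. The summed neural crest or peripheral neuron markers ran from 6.16 to 49 CPM over the 3DFusi tags (median 24.8) and from 5.78 to 9 CPM over the 2DCocu tags (median 7.31), ranges that overlap, and their part in these differences was not tested.

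Several members were near absent from 2DCocu and so fell below the filter on low counts. VIP had no count in any of the 12 2DCocu tags, while 3DFusi had 146 counts, at least 35.3-fold higher against a floor of 3 counts over the group. Without 3DFusiAcCoc1, whose VIP stood at 3.07 CPM, the bound was 10.8-fold. In that tag, 2 cells of cluster 27 gave 75 VIP counts. CARTPT likewise had no count in 2DCocu and 17 in 3DFusi, at least 4.13-fold higher, and at least 2.21-fold without 3DFusiAcMor3, which held 9 of the 17. SST had 5 counts in 2DCocu, with 8 of 12 tags at none, and 125 in 3DFusi, where every tag had some, from 0.158 to 2.25 CPM. With no filter on low counts, edgeR gave SST a rise of 3.79 (adjusted p = 1.67e-06) and CRH a rise of 1.33 (adjusted p = 0.0438). Of the 108 CRH counts in 3DFusi, 35 were in 3DFusiAcCoc3 and 29.78 of those in 1 cell, called a doublet. Without that tag the CRH rise was 0.93 and not called (adjusted p = 0.107 by edgeR).

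Joined arrangements were also set against single ones within a format, as the tag words Cocu and Fusi against Mono. AcCoc is found in the joined and AcDop in the single arrangements alone, so these fits took the Vehic and AcMor tags, with treatment as a term. No member passed. Of 2 tested between 2DCocu and 2DMono, where 29.9% of all genes were called, the smallest adjusted p was 0.108 by edgeR, for ADCYAP1 at −0.52 (SE 0.240), and 1 member had an unadjusted p under 0.05. DESeq2 called 0 as well. Of 4 tested between 3DFusi and 3DMono, where 1.47% of all genes were called, SST had the smallest, 0.0809 by edgeR, at 2.25 (SE 0.593), and it was the 1 member with an unadjusted p under 0.05. DESeq2 called SST there (2.34, adjusted p = 0.0186). Over the tags in that fit, SST stood at 0.0784 and 0.0998 CPM with Vehic and at 0.265 and 0.145 CPM with AcMor in 3DMono, and ran from 0.158 to 2.25 CPM in 3DFusi, with overlap. Without the cells of cluster 27, SST no longer had enough counts to be tested. Over all tags of every treatment, GAL had no count in the 6 3DMono tags and 38 in 3DFusi, at least 8.11-fold higher, but 22 of the 38 were in AcCoc tags, which have no match in 3DMono.

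The protocol arrangements differed most in NTS. It stood at 11.3 and 38.5 CPM in the 2 tags of 2DProto2Fjo, at 0.116 and 0.0703 CPM in 2DProto3Wu and at 0.778 and 0.678 CPM in 2DProto4Nic. No values of the 3 protocols overlapped. Each protocol was tested against the mean of the other 2-D ones in 1 fit over all 12 protocol tags, so the 3 contrasts share tags. NTS rose by 6.50 on the log2 scale in 2DProto2Fjo (SE 0.511, adjusted p = 0.000101 by edgeR), where 4.94% of all genes were called, and fell by 5.66 in 2DProto3Wu (SE 0.722, adjusted p = 0.000786 by edgeR), where 11.7% were. ADCYAP1 was at 1.78 and 1.46 CPM in 2DProto2Fjo, 1.01 and 0.947 CPM in 2DProto4Nic, and 0.252 and 0.129 CPM in 2DProto3Wu, in which it fell by 2.93 (SE 0.845, adjusted p = 0.0463 by edgeR). That call was lost in 8 of the fits that left out 1 tag. Cortical excitatory marker genes, summed, moved with both: they were at 293 to 322 CPM in 2DProto2Fjo, 102 to 119 CPM in 2DProto4Nic and 19.8 to 21.1 CPM in 2DProto3Wu. Their part in the NTS and ADCYAP1 differences was not tested.

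Of 7 members tested, none was called in 2DProto4Nic by edgeR, against 15.9% of all genes, with 2 at an unadjusted p under 0.05. NPY came nearest there, at 2.58 (SE 0.813, adjusted p = 0.0524), and DESeq2 called it (adjusted p = 0.0484). NPY was at 0.637 and 0.581 CPM in 2DProto4Nic, 0.354 and 0.212 CPM in 2DProto2Fjo, and 0.116 CPM and 0 in 2DProto3Wu. Between 3DProto1For and 3DProto2Xia no member of 7 was called by edgeR, nor was any gene (0%), with 1 member and 3512 genes at an unadjusted p under 0.05, and DESeq2 called 103 genes. VIP was that member, at 4.97 (SE 1.74, adjusted p = 0.301 by edgeR). Its 3 tags of 3DProto1For stood at 0.123, 28.2 and 0 CPM, so the difference belonged to 1 tag. Mesenchymal markers, summed, ran from 48.6 to 3290 CPM over those 3 tags, and their part was not tested.

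**Figure D4:**
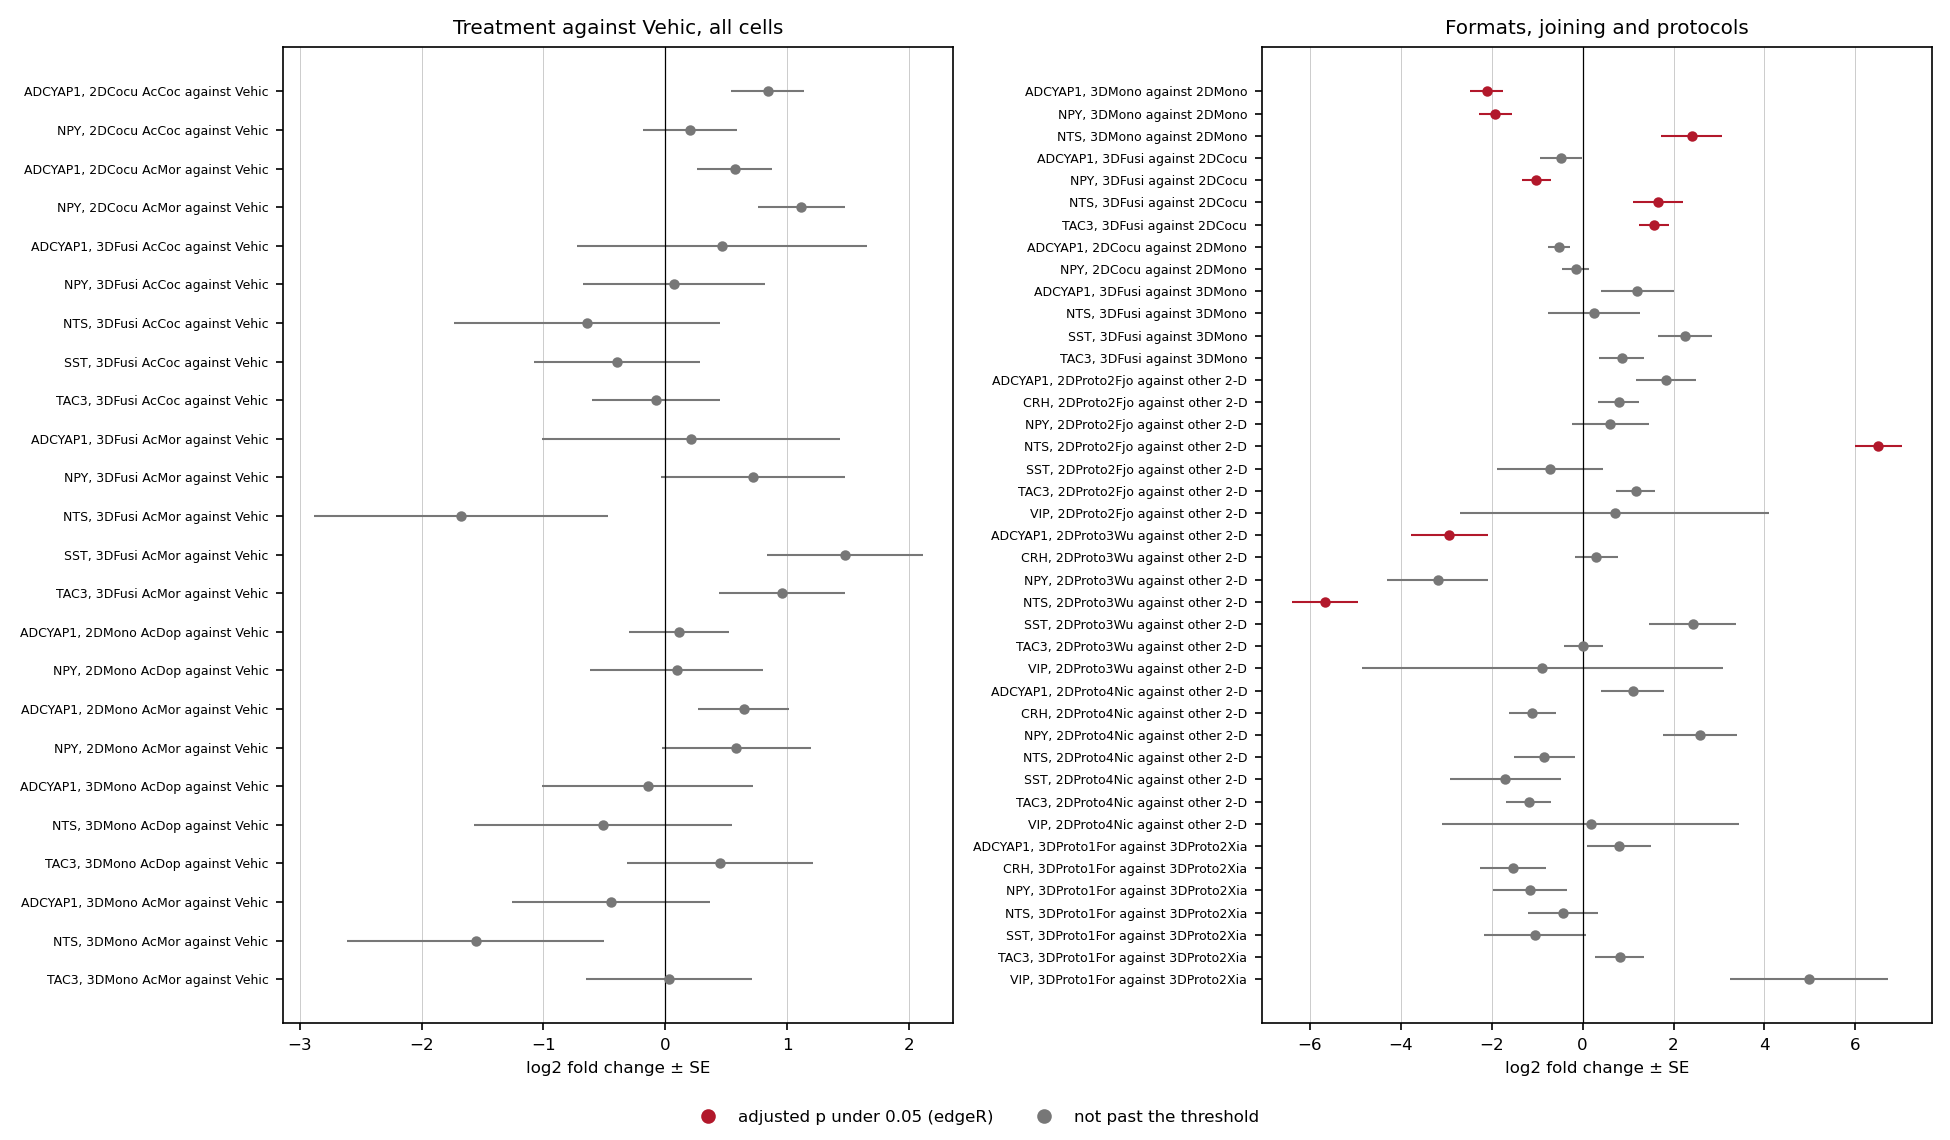
Log2 fold change with its standard error (bars) for each member with enough counts to be tested, for each treatment against Vehic in all cells (left) and for formats, joined arrangements and protocols (right); red points had an adjusted p under 0.05 by edgeR. No member passed in a treatment comparison, and NTS in 2DProto2Fjo was the highest at 6.50.

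To compare treatments, each treated group was set against the Vehic tags of its own arrangement, AcCoc and AcMor in the joined arrangements and AcDop and AcMor in the single ones. Within an arrangement the 2 comparisons share their Vehic tags. No neuropeptide gene passed the test. Of 24 tests of a member in all cells, edgeR called 0, with 3 at an unadjusted p under 0.05 and a smallest adjusted p of 0.106, and DESeq2 also called 0. Log2 fold changes ran from −1.68 to 1.48. Among all genes the share called was 6.1% for 2DCocu AcCoc and 0.975% for 2DCocu AcMor, and 0% in the other 6 comparisons. In those 6, edgeR had 177 to 1925 genes at an unadjusted p under 0.05, and DESeq2 called 0 to 174 genes. In 3DMono and 3DFusi, deviations of same-numbered tags went together. With the tag number as a replicate block, 3DMono AcMor had 36 genes called in place of 0, none of them a member (NTS −1.58, adjusted p = 0.304 by edgeR), and the other 3 comparisons in 3DMono and 3DFusi had 0 as before.

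The nearest to a change was ADCYAP1 in 2DCocu with AcCoc. Its tags stood at 1.46, 1.91, 2.60 and 2.19 CPM with AcCoc, at 1.55, 0.718, 1.17 and 1.12 CPM with Vehic and at 1.04, 1.84, 1.36 and 1.95 CPM with AcMor. The AcCoc and Vehic tags overlapped through 1 tag each. The fit gave 0.84 (SE 0.301, adjusted p = 0.106 by edgeR) for AcCoc and 0.57 (SE 0.309, adjusted p = 0.421) for AcMor. Without called doublets the AcCoc value was 1.14 and was called (adjusted p = 0.0464 by edgeR). The neuron classes made up 38.7% to 51% of cells in the AcCoc tags and 8.63% to 20.4% in the Vehic tags. In the neuron classes alone the same difference was −0.26 (adjusted p = 0.862 by edgeR), the opposite sign. NPY in 2DCocu was at 1.74, 0.732, 2.73 and 1.59 CPM with AcMor against 0.866, 0.700, 0.767 and 0.698 CPM with Vehic, a log2 fold change of 1.12 (SE 0.357, adjusted p = 0.140 by edgeR). AcCoc tags had 0.986, 1.07, 0.721 and 0.508 CPM of NPY.

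In 3DFusi, SST stood at 0.486, 2.25 and 0.818 CPM with AcMor and at 0.158, 0.783 and 0.531 CPM with Vehic (1.48, SE 0.638, unadjusted p = 0.041, adjusted p = 1 by edgeR). The highest of these tags, AcMor3, had 15.5% of its cells in cluster 27, the largest share of any tag, and 40 of its SST counts came from them. NTS in 3DFusi was at 1.60, 2.23, 1.71 and 2.10 CPM with AcCoc, at 1.08, 1.42 and 0.272 CPM with AcMor, and at 7.43, 0.0792 and 0 CPM with Vehic. The Vehic tags spanned the whole range, and the AcCoc contrast, −0.64 with all tags, was 5.22 without 3DFusiVehic1, neither being called. Over the 2 AcDop tags of 2DMono, ADCYAP1 was at 1.42 and 1.61 CPM against 1.36 and 1.60 CPM in Vehic. The 2 AcDop tags of 3DMono had 0.864 and 0.228 CPM against 0.287 and 1.02 CPM. CARTPT, named for its response to cocaine, had no count in any AcCoc, AcMor or Vehic tag of 2DCocu, and in 3DFusi it was too rare to be tested, with 17 counts in 10 tags.

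Within the neuron classes 8 tests of a member could be made, of NTS and ADCYAP1 only and none in 2DMono. edgeR called 0, with 0 at an unadjusted p under 0.05 and a smallest adjusted p of 0.687, and DESeq2 called 0. Over all genes the share called was 0.367% for 2DCocu AcCoc, 0.0544% for 2DCocu AcMor and 0.00718% for 2DMono AcDop, and 0% in the rest. With the tag number as a replicate block, 3DFusi AcCoc had 2 genes called there in place of 0. Whether a treatment acted differently in 3-D and 2-D was tested as an interaction for 14 pairs of member and treatment, and edgeR called 0, with 0 at an unadjusted p under 0.05 and values from −2.28 to 2.08 on the log2 scale (smallest adjusted p = 0.957). Of all genes, 0.00425% (1 of 23504) were called for AcCoc in the joined arrangements and 0% in the other 3 interactions, so the count of 0 says nothing particular of the members.

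Some genes that receive or handle neuropeptides passed the test in 2DCocu, where the share of cells in neuron classes was also higher in every AcCoc and AcMor tag (38.7% to 51%) than in any Vehic tag (8.63% to 20.4%). Within the neuron classes no list gene was called, of 8 receptors, 13 processing genes and 1 other precursor tested. Of all genes, 0.367% (AcCoc) and 0.0544% (AcMor) were called there, so the count of 0 says nothing particular of the lists. Of 24 receptor and binding protein genes of these peptides, 15 processing and dense core vesicle genes and 32 other precursors, 11, 14 and 10 had enough counts in the 2DCocu treatment fits. With AcCoc, against 6.1% of all genes called, 2 receptors rose and 1 fell: the somatostatin receptor gene SSTR2 by 1.30 (SE 0.230, adjusted p = 0.00471 by edgeR), the cholecystokinin receptor gene CCKBR by 1.02 (adjusted p = 0.0219) and the galanin receptor gene GALR1 by −1.25 (adjusted p = 0.00800). Of the processing genes 4 rose and 1 fell, among them SCG3, a sorting protein of dense core vesicles (1.33, adjusted p = 0.00228 by edgeR), CPE, the carboxypeptidase that trims peptides (0.69, adjusted p = 0.00306), and CADPS2, a vesicle priming factor (−0.57, adjusted p = 0.00794). With AcMor, sharing the Vehic tags and with 0.975% of all genes called, 3 of 11 receptors and 2 of 14 processing genes passed: SSTR2 was at 1.01, GALR1 at −1.11, the neurotensin receptor gene NTSR1 at 0.72, SCG3 at 1.09 and VGF at 1.44, all called (adjusted p = 0.0203 to 0.0488 by edgeR). The list medians were 0.18 for receptors and 0.22 for processing genes with AcCoc, beside −0.0017 over all genes tested. In 1 fit over all treated arrangements, 0 genes were called for either treatment in 2DCocu, so these calls depend on fitting 2DCocu alone. None of the other precursors was called in 2DCocu (10 tested). No gene of the lists was called in the other treated arrangements, where 0% of all genes were called in all cells.

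Between formats the lists moved in both directions. In 3DMono against 2DMono, where 38% of all genes were called, 3 receptors rose and 4 fell of 11 tested, 1 processing gene rose and 5 fell of 14, and 7 other precursors rose and 4 fell of 14. TAC1 (substance P, −3.56), PENK (enkephalin, −2.95) and PROK2 (−3.12) had the smallest adjusted p among precursors (1.11e-05, 9.82e-06 and 0.000187 by edgeR). The prohormone convertase PCSK1 fell by 1.98 and CPE by 1.24, while the PACAP receptor gene ADCYAP1R1 rose by 1.26 (adjusted p = 0.000537 by edgeR) where ADCYAP1 itself fell. In 3DFusi against 2DCocu, where 48.8% of all genes were called, 2 receptors rose and 5 fell of 11, 6 processing genes rose and 6 fell of 14, and 4 precursors rose and 1 fell of 14. NTSR1 fell by 1.75 (adjusted p = 4.74e-09 by edgeR) where NTS rose, and the granule protein gene CHGB rose by 2.37 (adjusted p = 2.54e-09). CADPS, another priming factor, fell in both, by 1.12 and 1.44. In 3DMono against 2DMono and 3DFusi against 2DCocu, the median differences were −0.338 and −0.58 for receptors, −0.214 and −0.0391 for processing genes and 0.518 and 0.423 for other precursors, beside 0.031 and 0.045 over all genes tested. The precursors of smallest adjusted p in the former fell although the list's median was above 0. With tags of the same number summed, 7 of the 11 called precursors in the former and 3 of the 5 in the latter were still called by edgeR.

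Genes of the lists were also called between joined and single arrangements, over Vehic and AcMor tags as above. In 2DCocu against 2DMono, where 29.9% of all genes were called, 2 receptors rose and 0 fell of 11, 3 processing genes rose and 5 fell of 14, and 1 precursor rose and 3 fell of 14, so the shares of receptors and of precursors called were no larger than that of all genes. CPE fell by 0.83 and CHGB by 1.52, CADPS2 rose by 0.66, PENK fell by 2.23, PROK2 fell by 1.19 and GNRH1, the gonadotropin-releasing hormone gene, rose by 1.35 (adjusted p = 2.14e-05 to 0.00898 by edgeR). GALR1 rose by 2.57 in 2DCocu against 2DMono (adjusted p = 4.38e-06 by edgeR) and by 2.91 in 3DFusi against 3DMono (adjusted p = 0.00566), the same direction in both formats. In 3DFusi against 3DMono, with 1.47% of all genes called, CHGB (1.66) and TAC1 (2.46) were the other genes of the lists called. With tags of the same number summed, GALR1 was at 2.70 and still called (adjusted p = 0.0461 by edgeR), while CHGB at 1.78 (adjusted p = 0.201) and TAC1 at 2.31 (adjusted p = 0.106) were not. In 2DProto2Fjo, where NTS was highest and 4.94% of all genes were called, 5 of 16 receptors rose and 0 fell, including NTSR1 by 1.31 (SE 0.257, adjusted p = 0.0140 by edgeR), ADCYAP1R1 by 1.26 and NPY5R by 2.84. The receptor list had a median of 1.16 there, beside −0.00089 over all genes. Of its processing genes 0 rose and 2 fell of 14 (VGF and SCG2), and 1 precursor of 20, TRH, rose. In 2DProto3Wu, where 11.7% of all genes were called, 2 receptors rose and 1 fell of 16, 2 processing genes rose and 1 fell of 14, and 2 precursors rose and 1 fell of 20. NTSR1 fell by 1.78 (adjusted p = 0.00320 by edgeR), along with NTS, while NTSR2 rose by 4.16 (adjusted p = 0.00489). In 2DProto4Nic, with 15.9% of all genes called, 0 receptors rose and 3 fell of 16, 3 processing genes rose and 4 fell of 14, and 1 precursor rose and 2 fell of 20. There VIPR2, a receptor of VIP and PACAP, fell by 1.84 and ADCYAP1R1 by 1.27, SCG2 rose by 1.53, and PENK rose by 4.35 (adjusted p = 0.00269 to 0.0294 by edgeR). No gene of the lists was called between 3DProto1For and 3DProto2Xia, of 16, 14 and 20 tested, where 0% of all genes were called.

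The genes whose levels ran most alike to each member over the 46 tags are given as a description, by Pearson's r of log2(CPM + 1). Tags share library, pool and depth, so r has no test. NTS ran with WNT7B (0.783), TBC1D30 (0.767) and TRPC6 (0.760), and without its highest tag these were 0.717, 0.654 and 0.647. SST ran with CHGB (0.755), EML5 (0.747) and SCML4 (0.725), NPY with TSPAN2 (0.730), NLGN4X (0.725) and DSEL (0.705), TAC3 with LINC01695 (0.736), SPTY2D1 (0.720) and POLR1C (0.714), and ADCYAP1 with HOMER2 (0.724), COL6A2 (0.714) and STAC (0.71). The likeness was weaker for CCK, CRH, CARTPT, GAL and VIP. For VIP the nearest gene, CLIC4, had an r of 0.560 that dropped to 0.372 without 3DProto1For2. That of the next gene, ENSG00000259001, went from 0.546 to 0.587, and that of the third, ENSG00000225649, from 0.532 to 0.0774.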

How the data were processed

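Single-cell RNA was measured in cells of 46 culture tags. The authors deposited expected counts, that is, estimated counts per gene and cell that need not be whole, made with Salmon 1.7.0 and alevin against hg38, with Seurat 4.1.1 also named, per the submitters' processing notes; the role of each tool and the filters are not stated. Depth was 12776 counts per cell at the median, of 50000 planned reads per cell.

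Genes and lists were chosen with earlier results of these data known. All 43693 cells passed minimums of 500 genes and at most 15% mitochondrial counts; 7467 (17.1%) were called doublets and kept. Cells were scaled to 10000, and 2000 variable genes without the members, 30 components, 20 neighbours and Leiden clustering at 0.8 gave clusters, named where at least 40% of a marker list and at least 3 markers were detected in 10% of cells and over 2-fold higher (pseudocount 1 CPM), and left unnamed where the 10 leading genes held more markers of another list, most cells were called doublets or 2 lists of non-neuronal cells were equally complete, rules set after seeing the clusters. Counts were summed per tag, rounded, filtered (filterByExpr), TMM-scaled and tested with edgeR 4.0.16 and limma 3.58.1 in R 4.3.3; SE is the log2 fold change over the root of F. DESeq2 1.42.0 was an alternative. Scripts used Python 3.11.15, leidenalg 0.10.2 and scikit-learn 1.9.0 and were tested on simulated data. All 10 members and, per list and comparison, at most 3 called genes, those of smallest adjusted p, are named. Tags of a group differed beyond counting noise in all 45 pairs (chi-square per degree of freedom 5.41 to 156). Tag numbers were taken to pair tags in 3DFusi and 3DMono, though the labels do not state it. Deviations of same-numbered tags there correlated at 0.201 to 0.688 over 9 pairs and at 0.108 to 0.326 over 6 pairs (7686 genes). With 2 tags in a group the deviations of both mirror each other, so the 6 pairs of 3DMono repeat values and are not independent. In 3DFusi 5 of 10 tags ran best with their own number.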

Additional observations from a re-analysis of the deposited data

Results flagged for a closer look

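In all, 3 single tags stood far from the others of their group, out of 33 groups looked at. These were groups of 4 to 10 tags or sublibraries with at least 10 counts. The rule marks about 1 in 20 groups of normally distributed values. CPM from so few counts need not be so distributed, so the 3 cannot be read against that rate. VIP was at 3.07 CPM in 3DFusiAcCoc1, where 2 cells of the unnamed cluster 27 gave 75 counts. TAC3 was at 0.508 CPM in 2DCocuAcCoc4 and at 1.16 CPM in 3DFusiAcCoc4, where 9 counts came from the 84 cells of cluster 27, at 6.98 CPM against 0.243 CPM in the tag's other cells.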

How the results depend on the processing

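For the members' log2 fold changes, 424 values under an alternative kept direction and side of the threshold, 13 were newly called, 14 lost their call and 9 reversed. Alternatives with an NA adjusted p in DESeq2 were left out. Leaving out 3DFusiVehic1 or 3DMonoVehic1 gave each reversal among the fits without 1 tag, and no reversed value was called. Without 1 tag, NTS ran from −1.18 to 5.22 for 3DFusi AcCoc and from −3.96 to 0.99 for 3DMono AcMor, and in the neuron classes from −0.81 to 4.93 (3DFusi AcCoc), −3.95 to 3.20 (3DFusi AcMor), −1.49 to 2.30 (3DMono AcDop) and −7.91 to 0.33 (3DMono AcMor); TAC3 for 3DMono AcDop ran from −0.16 to 1.00. With the tag number as a replicate block, NTS for 3DFusi AcCoc was 0.20 (all cells) and 0.31 (neuron classes), and the block changed no call of a member. In 2DCocu and 2DMono, same-numbered tags correlated at −0.442 to 0.142 and −0.0871 to 0.310. In 2DCocu 0 of 12 tags ran best with their own number, so no pairing was seen there. In 2DMono 6 of 6 did, at a median of 0.135 against −0.135 for other numbers, so a pairing there is not settled. The block took the calls over all genes in 2DCocu from 205 to 43 for AcMor.

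The number of members called moved as follows, the cause not being tested. Without called doublets it was 1 for 2DCocu AcCoc (0 with them) and 1 for 3DFusi against 2DCocu (3 with them). With no filter on low counts it was 6 for 3DFusi against 2DCocu, where 12521 of 45441 genes were called. With 3DFusiAcCoc3 left out as well it was also 6, where 12595 of 45246 genes were called. The 6 were not the same, since CRH was called only with that tag. No filter also gave 1 each for 3DMono AcMor in the neuron classes (NTS −2.50), 2DCocu against 2DMono (VIP), 3DFusi against 3DMono (SST) and 2DProto4Nic (NPY). DESeq2 gave 1 for each of the last pair. With fewer tags or cells, Vehic tags alone gave 1 for 3DMono against 2DMono and 0 for 3DFusi against 2DCocu (1 tested), and neuron classes alone gave 1 for 3DMono against 2DMono. Without 1 tag, the range was 0 to 1 for 3DFusi against 3DMono (1 without 3DFusiAcMor1 or 3DFusiVehic1), 1 to 2 for 2DProto2Fjo (2 without 3DProto2Xia2), 1 to 3 for 2DProto3Wu, and 0 to 1 for 2DProto4Nic (1 without 2DProto3Wu_1, 3DProto1For3 or 3DProto2Xia2).

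Over all genes, DESeq2 called 2006 for 2DCocu AcCoc (edgeR 1283), 697 for AcMor (205), 1565 for 3DFusi against 3DMono (350) and 1978 for 2DProto2Fjo (1264). With tags of the same number summed, chosen after seeing the data like leaving out 3DFusiAcCoc3, 3DFusi against 3DMono had 21. Without called doublets the 2DCocu AcCoc and AcMor counts were 2620 and 1280, and with 1 fit over the treated arrangements 0 and 0. With no filter, 3DMono AcMor had 747 (0), AcDop 145 (0), 2DMono AcMor 185 (0) and AcDop 38 (0), 2DCocu AcMor 391 and 3DFusi against 3DMono 628. In the neuron classes 2DCocu AcCoc had 190 by DESeq2 and 341 with no filter (54), and 2DCocu AcMor had 79 and 222 (8). 3DMono AcMor had 294 there with no filter (0). Neuron classes alone gave 4953 for 3DMono against 2DMono (8297) and 7530 for 3DFusi against 2DCocu (10987). Vehic tags alone gave 3247 for 3DMono against 2DMono (8297) and 6019 for 3DFusi against 2DCocu (10987). Leaving out 1 tag gave 403 to 1434 for 2DCocu AcCoc, 27 to 283 for AcMor, 67 to 1564 for 3DFusi against 3DMono, 242 to 2013 for 2DProto2Fjo, 681 to 4019 for 2DProto3Wu and 888 to 5393 for 2DProto4Nic. Where 0 or 1 gene was called with all tags, the highest counts were 400 for 3DMono AcMor (without 3DMonoAcMor2), 48 for 3DMono AcDop (without 3DMonoVehic1) and 163 for 3DProto1For against 3DProto2Xia (without 3DProto1For3), and in the neuron classes 223 for 3DMono AcMor (without 3DMonoAcMor1), and 108 for 2DMono AcMor and 77 for AcDop (both without 2DMonoAcDop2). In these classes 2DCocu AcCoc and AcMor ran from 6 to 128 and from 4 to 57. Of the shares of cells with a count, 57 moved and 103 did not, the former mostly on thinning, so low shares depend on depth. Of the levels in CPM, 37 moved and 143 did not. Their alternatives were clustering at 0.4, no called doublets, and cells sorted by their own GAD and SLC17A counts.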
